A study of Rattus norvegicus with 2 samples.

Results

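Transcripts that mark the sheaths around sensory ganglia were examined in DRGs of rats with a tumor in 1 tibia. The 10 genes were Crabp2, Ptgds, Aldh1a1, Aldh1a2, Cldn1, Cldn11, Slc2a1, Igfbp2, Foxc1 and Gjb2, of 14217 genes on the array that a probe set names alone. They were picked as leptomeningeal and perineurial transcripts and were chosen in part on their signals, since such genes, Crabp2 among them, had been seen to be slightly higher on the side of the tumor. Their differences between the sides are therefore given as a description, with no test. All 10 were measured, by 14 probe sets, where a probe set is several short probes for the same transcript that together give 1 signal.

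Tumor-side DRGs came from the side of the right tibia, whose bone marrow cavity was inoculated with 100000 cells of IP-B12, a lung carcinoma line of the rat that destroys bone. Control-side DRGs came from the side of the left tibia. Both were taken 14 days after inoculation from female Sprague-Dawley rats. The rats are described as 4 weeks old when used, and their age at collection is not given. The control DRGs thus also come from animals that carry the tumor, and the sources describe no sham injection for the left leg. RNA of each side was hybridized to 1 Affymetrix GeneChip array for the rat genome, and the sources used here do not give the number of rats behind each RNA. There are no replicate arrays and hence no error between replicates, so each difference describes these 2 arrays.

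A DRG is wrapped in connective tissue. Toward the spinal cord, its coverings pass over into those of the root and cord, which include the leptomeninges, the arachnoid and the pia. Along the spinal nerve they pass over into the perineurium. Arachnoid and perineurial cells are joined by tight junctions of claudins and by gap junctions of connexins, and they separate the fluid around the neurons from that of the surrounding tissue. Leptomeningeal cells are also known as a source of retinoic acid and of prostaglandin D synthase in the cerebrospinal fluid.

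Of the 10 genes, 9 had signals at or above the median of all probe sets on both arrays, 72.7 on the tumor-side and 69.0 on the control-side array. The other was Foxc1. A gene was represented by its brightest probe set, and was called above the signal rule if its brighter side was at least as bright as the median probe set of the same array, which held for 9691 genes. Over these, the median log2 ratio (tumor side over control side) was 0.08, and the middle part, from percentile 25 to percentile 75, lay between -0.02 and 0.18. The 21 spiked control probe sets, for RNA added from outside, also had a median log2 ratio of 0.08. What the shift of the median gene reflects was not tested. The 9 barrier genes had a median log2 ratio of 0.23, a fold of 1.17, and a range of 0.03 to 0.39. All 9 had the higher deposited signal on the tumor side, as did 70.9% of all genes above the rule, though Slc2a1 and Aldh1a2 did not once the arrays were rescaled, nor Aldh1a1 after quantile normalization. Above the median gene lay 7 of the 9, or 6 after quantile normalization.

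The 9 genes are described as an upper and a lower set, drawn after their ratios were seen and without a test. Crabp2, Cldn1, Ptgds, Igfbp2 and Cldn11 had deposited signals 1.17 to 1.31 times higher on the tumor side. These 5 lay above percentile 75 of all genes. Gjb2, Aldh1a1, Slc2a1 and Aldh1a2 were 1.02 to 1.07 times higher, close to the median gene at 1.06. A threshold of 25% higher or 20% lower, the same fold in either direction, was used for counts. Past it, 1 of the 9 was higher on the tumor side, against 7.54% of the genes above the rule, and 0 were lower, against 3.01%. After quantile normalization 0 of the 9 were past it, against 4.05% of genes higher and 4.42% lower, after median-centring 0, against 3.92% and 4.50%, and after loess 0, against 4.06% and 4.43%. With a threshold of 15% higher the count was 5 in the deposited signals, against 20.6% of the genes. After quantile normalization, median-centring or loess, only Crabp2 was still 15% higher. Its log2 ratio after quantile normalization was 0.30, beside 0.18 for Cldn1, 0.16 for Ptgds and 0.13 for Igfbp2 and Cldn11. The share of all genes past 15% was not computed after these scalings.

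**Figure D1:**
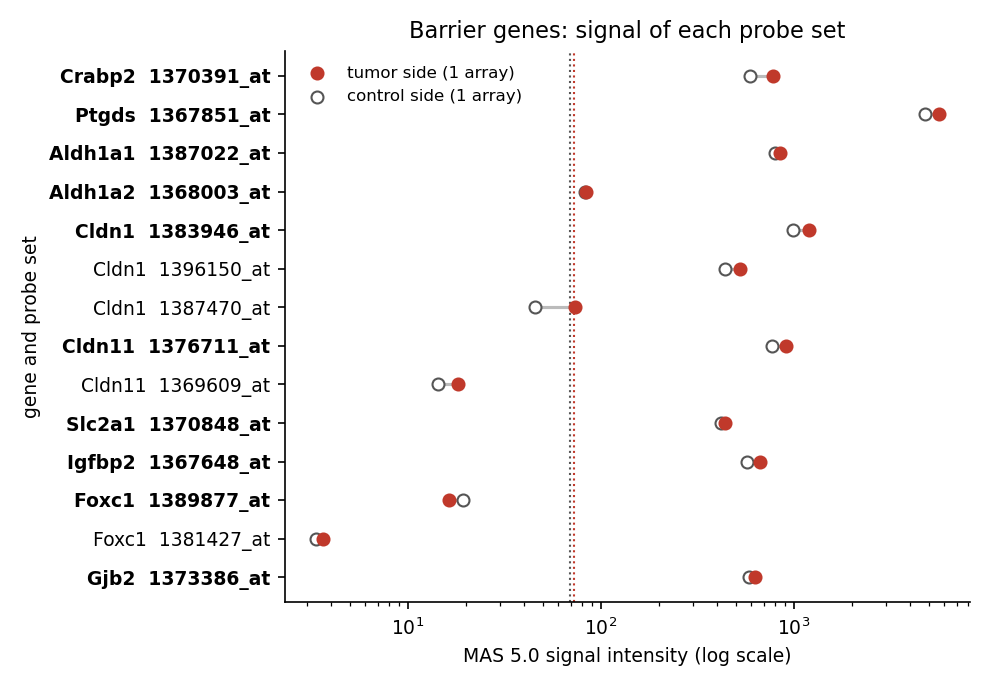
MAS 5.0 signal intensity (log scale) of the 14 probe sets of the 10 barrier genes, with filled points for the tumor-side array and open points for the control-side array. Bold names mark the brightest probe set of a gene and dotted lines the median signal of each array, 72.7 and 69.0. The tumor-side point lies to the right in all probe sets but the brighter one of Foxc1, and the points of Aldh1a2 lie on top of each other.

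The retinoic acid genes differed among themselves. Crabp2, which encodes a carrier that hands retinoic acid to its nuclear receptors, had a signal of 775 in tumor-side DRGs and 593 in control-side DRGs, a log2 ratio of 0.39 on its only probe set. This was the highest ratio of the 9, and higher than that of 95.4% of the genes above the rule. The listed enzymes that make retinoic acid from retinaldehyde had lower ratios. Aldh1a1 had 847 on the tumor side and 797 on the control side, a log2 ratio of 0.09, and Aldh1a2, the synthesizing enzyme best known from the meninges of the embryo, had 84.0 and 82.4, a log2 ratio of 0.03. A further enzyme of this kind, Aldh1a3, added here after its values were seen, had 339 on the tumor side and 306 on the control side, a log2 ratio of 0.15. The ratio of Crabp2 thus exceeded that of Aldh1a1 by 0.30 on the log2 scale.

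A technical spread was read from genes with several probe sets, taking those whose signal lay within 2 times that of the gene in question. Their log2 ratios had an SD of 0.11 around the signal of Crabp2 (350 genes), 0.10 around that of Aldh1a1 (304 genes) and 0.29 around that of Aldh1a2 (543 genes). The middle 90% of all probe sets near Crabp2 in signal ran between log2 ratios of -0.12 and 0.30, and Crabp2 lay outside it. Aldh1a1, whose neighbours ran between -0.11 and 0.28, lay inside. This spread holds the noise of the probes on these arrays, but not that between animals or ganglia, and as the genes were chosen in part on these ratios, a place outside such a range is a description only.

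Around these genes, 21 further genes of retinoid metabolism and signalling were measured, of which 16 were above the rule. Their median log2 ratio was 0.11, with 2 past the threshold upward on the tumor side and 1 past it downward. Rarres2, the gene of the secreted protein chemerin, had 1403 on the tumor side and 1073 on the control side. Rxrb, a partner receptor of the retinoic acid receptors, had 137 and 108. Rara, a retinoic acid receptor, went the other way with 43.4 on the tumor side and 70.3 on the control side, and passed the rule only by its control-side signal. The carrier was among the higher ones of its pathway, a place that its choice in part on this ratio favours. Most of the pathway stood near the median gene.

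The stretch of 250 bases before the transcription start is shown for the 3 retinoic acid genes among the members, in the genome build GRCr8 of RefSeq. The arrays name no build, so these coordinates place the sequences and not the probes. Capitals mark matches on either strand to 6 motifs. These are the motif of the TATA-binding protein, spelled TATAAA, the box of Sp factors, spelled GGGCGG and called GC box here, the hexamer of nuclear receptors, spelled AGGTCA, the octamer of POU factors, spelled ATGCAAAT, the box of the factor NF-Y, spelled CCAAT, and an E-box, spelled CAGGTG.
Crabp2 (chr2:175714612-175714861, + strand): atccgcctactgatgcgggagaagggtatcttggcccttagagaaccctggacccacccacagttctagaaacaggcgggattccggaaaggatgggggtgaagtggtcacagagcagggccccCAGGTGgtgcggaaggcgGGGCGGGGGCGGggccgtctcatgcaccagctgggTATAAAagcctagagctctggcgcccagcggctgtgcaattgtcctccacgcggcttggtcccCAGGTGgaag
Aldh1a1 (chr1:227537370-227537619, + strand): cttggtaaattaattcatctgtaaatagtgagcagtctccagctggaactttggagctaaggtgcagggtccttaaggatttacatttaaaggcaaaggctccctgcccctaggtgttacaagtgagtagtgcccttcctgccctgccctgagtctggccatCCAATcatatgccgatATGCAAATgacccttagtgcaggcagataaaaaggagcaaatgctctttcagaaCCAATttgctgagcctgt
Aldh1a2 (chr8:80758391-80758640, + strand): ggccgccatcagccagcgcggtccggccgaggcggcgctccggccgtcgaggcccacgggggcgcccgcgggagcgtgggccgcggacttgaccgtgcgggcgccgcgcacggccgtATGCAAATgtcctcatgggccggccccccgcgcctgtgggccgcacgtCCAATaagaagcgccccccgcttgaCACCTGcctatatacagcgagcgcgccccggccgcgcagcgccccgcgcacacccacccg

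Crabp2 holds a TATA box, 73 to 68 bases before the start, 2 adjoining GC boxes and 2 E-boxes. Aldh1a1 and Aldh1a2 share the octamer, which 1.56% of all 33469 promoters of the table hold in the same window, and both also hold a CCAAT box. Aldh1a2 holds an E-box too. No matches overlap in these 3 sequences. Over the 10 barrier genes, all of which had a promoter in the table, 8 held a GC box (30.5% of all promoters), 4 a CCAAT box (34.0%), 3 the E-box (15.9%), 2 the octamer, 1 the hexamer (14.1%) and 1 the TATA box (12.9%). The promoter of Crabp2 was the one with the TATA box. A match is a run of letters and was not tested for binding or for a tie to the ratios.

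Both claudins were higher on the tumor side. Cldn1, the claudin that seals the perineurium, had 1198 in tumor-side DRGs and 994 in control-side DRGs on its brightest probe set, a log2 ratio of 0.27. Its other 2 probe sets went the same way, with 523 on the tumor side and 442 on the control side (log2 ratio 0.24), and with 73.7 and 45.4 (log2 ratio 0.70). The last is a dim probe set that passed the signal rule only by its tumor-side signal, and around its signal the SD between probe sets of a gene was 0.35. The 2 bright probe sets thus differed by less than the technical spread of 0.09 (267 genes) around the brighter of them.

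Cldn11, the claudin of the arachnoid barrier and of central myelin, had 907 on the tumor side and 775 on the control side, a log2 ratio of 0.23. A second probe set below the rule gave 18.3 and 14.3, a log2 ratio of 0.35 at a signal where the SD between probe sets of a gene was 0.88. The ratios of Cldn1 and Cldn11 on their brightest probe sets were close to each other, and both lay within the middle 90% of probe sets near them in signal, whose upper ends were 0.27 and 0.28.

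The sequence before the start of Cldn1, which had the highest ratio after Crabp2, is given in the same build and with the same marks. It holds 2 GC boxes, which do not overlap, and none of the other 5 motifs.
Cldn1 (chr11:87926126-87926375, + strand): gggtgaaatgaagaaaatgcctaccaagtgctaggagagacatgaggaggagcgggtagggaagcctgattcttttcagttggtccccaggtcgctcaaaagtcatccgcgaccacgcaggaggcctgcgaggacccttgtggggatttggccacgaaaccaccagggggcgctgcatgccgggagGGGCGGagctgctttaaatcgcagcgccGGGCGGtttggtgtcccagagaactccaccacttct

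Other claudins and tight junction proteins numbered 21 measured and 11 above the rule. These had a median log2 ratio of 0.18. Past the threshold upward were 2, Esam, an adhesion molecule of endothelial junctions, with 93.1 on the tumor side and 73.7 on the control side, and Cldn22, with 90.5 and 72.1. Both are dim, with log2 ratios of 0.34 and 0.33. Around Aldh1a2, which has a like signal, the middle 90% of probe sets reached up to 0.56. Cldn5, the claudin of blood vessels in nerve and brain, had 265 and 220. None was past it downward.

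Gjb2 encodes connexin 26, a gap junction protein of leptomeningeal cells. It had 630 in tumor-side DRGs and 586 in control-side DRGs, a log2 ratio of 0.10, near the median gene. Of 9 other connexins measured, 5 were above the rule, with a median log2 ratio of 0.34. Past the threshold were 3 of the 5 upward and 1 downward, against 7.54% and 3.01% of all genes above the rule. Of these 5, 3 passed the rule on 1 array alone, Gja4 and Gjc1 only by the tumor-side signal and Gjb1 only by the control-side signal, so that the counts of this list follow in part from the rule. The 2 above the rule on both arrays, Gja1 and Gjb6, had a median log2 ratio of 0.35. Gja1, added here after its values were seen, had 1932 on the tumor side and 1528 on the control side. Gjb6, which encodes connexin 30, had 156 on the tumor side and 121 on the control side, and Gja4, a connexin of vessel walls, had 84.2 and 61.8. Gjb1, which encodes connexin 32 of Schwann cells, had 55.3 on the tumor side and 73.6 on the control side. The other 4 were below the rule, and without the filter the median of the 9 was 0.17.

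Slc2a1 encodes GLUT1, the glucose transporter of the perineurium and of vessels of the blood-nerve barrier. It had 442 in tumor-side DRGs and 420 in control-side DRGs, a log2 ratio of 0.07. Of 8 other facilitative transporters measured, 5 were above the rule, and none was past the threshold in either direction. Slc2a5, a fructose transporter, differed most with 105 on the tumor side and 89.2 on the control side. This family stood at the median gene, with a median log2 ratio of 0.04.

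**Figure D2:**
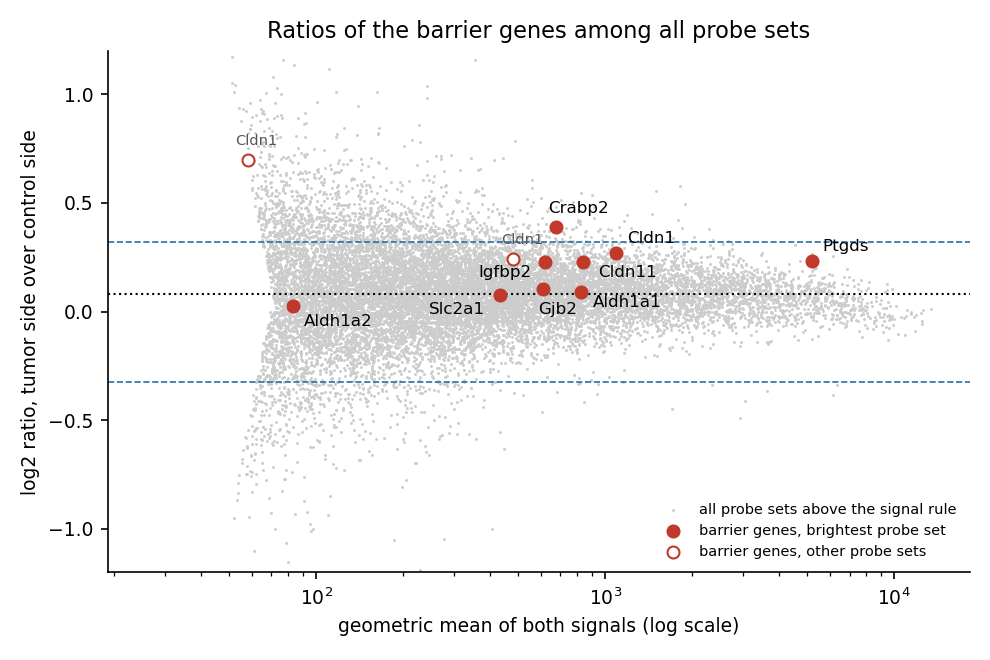
Log2 ratio (tumor side over control side) against the geometric mean of both signals (log scale), with grey points for all probe sets above the signal rule, filled red points for the brightest probe sets of the 9 barrier genes above it and open red points for other probe sets of these genes. The dotted line is the median gene at 0.08, the dashed lines mark 25% higher and 20% lower, and the axis ends at 1.2 in either direction, which leaves out 27 probe sets. Crabp2 lies above the upper dashed line, Aldh1a2 at 0.03 among widely scattered dim probe sets.

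Ptgds and Igfbp2 encode secreted proteins. Ptgds, the lipocalin-type prostaglandin D synthase that leptomeningeal cells release into the cerebrospinal fluid, had 5615 in tumor-side DRGs and 4781 in control-side DRGs, a log2 ratio of 0.23. At this high signal ratios scatter little, with an SD of 0.05 between probe sets of a gene (55 genes), and the middle 90% of probe sets near it ran between -0.06 and 0.19, below the ratio of Ptgds.

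Other genes of prostaglandin synthesis and reception stood at the median gene as a group. Of 17 measured, 7 were above the rule, with a median log2 ratio of 0.08, and 0 of them were past the threshold upward and 2 downward. Ptges2, a prostaglandin E synthase, had 242 on the tumor side and 349 on the control side. Ptger3, a receptor of prostaglandin E2, had 67.8 and 137 and passed the rule only by its control-side signal, while a second probe set below the rule went the other way with 55.5 on the tumor side and 34.9 on the control side. Ptgs1, a cyclooxygenase, had 127 and 109.

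Igfbp2, a secreted binding protein of insulin-like growth factors that leptomeninges and choroid plexus express, had 669 in tumor-side DRGs and 572 in control-side DRGs, a log2 ratio of 0.23 on its only probe set. The middle 90% of probe sets near it in signal reached up to 0.31. Of 11 other genes of this axis, 9 were above the rule, with a median log2 ratio of 0.19, and 1 was past the threshold upward. This was Igf1, the growth factor, with 1090 on the tumor side and 837 on the control side, while its other 2 probe sets had log2 ratios of 0.11 and 0.35. Igfbp7, a binding protein of vessels and matrix, had 5677 and 4724, and Igfbp6 had 1830 and 1557. Igfbp2 thus had a ratio like those of other binding proteins of its family.

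Foxc1 encodes a forkhead transcription factor that the meninges of the mouse need to form. Its brighter probe set had 16.4 in tumor-side DRGs and 19.4 in control-side DRGs, a log2 ratio of -0.24, at percentiles 24.8 and 28.3 of their arrays. The dimmer one had 3.65 on the tumor side and 3.35 on the control side, not above the highest signals of the trp control probe sets, which target a bacterial gene and reached 4.63 on the tumor side and 5.39 on the control side. Around the brighter probe set the SD between probe sets of a gene was 0.80 (281 genes), so that no direction can be read for Foxc1. Of 10 other transcription factors of the meninges measured, 9 were below the rule too. The remaining one was Twist1, with 86.2 on the tumor side and 72.7 on the control side.

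Further transcripts of the same sheaths are given for their own values, since the 9 genes were chosen in part on their signals and are no equal match. Of 25 other leptomeningeal and arachnoid transcripts measured, 18 were above the rule, with a median log2 ratio of 0.15, and 12 of the 18 lay above the median gene. Past the threshold upward were 3 of the 18, against 7.54% of all genes above the rule. These were Bmp5, a bone morphogenetic protein, with 213 on the tumor side and 157 on the control side, Slc47a1 and Cemip. Slc47a1, an exporter of organic cations, had 186 and 137, and Cemip, which breaks down hyaluronan, had 229 and 183. Of 17 other perineurial transcripts, 10 were above the rule, with a median of 0.13 and 1 past the threshold upward. This was Sfrp4, an antagonist of Wnt signals, with 340 on the tumor side and 270 on the control side. Itga3, an integrin of basement membranes, had 283 and 228, and Notch3 had 154 and 127. None of either list was past the threshold downward.

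The lists of fibroblast and vessel markers also had medians above that of all genes. Past the threshold upward were 5 of the 13 fibroblast markers, against 1 of the 9 barrier genes and 7.54% of all genes above the rule. All 13 were above the rule, with a median log2 ratio of 0.20 and a summed signal of 22395 on the tumor side and 20196 on the control side. Their lowest signals were 118 and 84.3. Postn, a matrix protein, had 840 on the tumor side and 588 on the control side. Of 15 endothelial and pericyte markers, 10 were above the rule, with a median of 0.20. Past the threshold were 2 of the 10 upward and 1 downward, against 7.54% and 3.01% of all genes above the rule. Of the 2, Cspg4 passed the rule only by its tumor-side signal. Summed signals over all 15 were 3871 on the tumor side and 3416 on the control side. The marker past the threshold downward was Abcb1a, a drug efflux pump of barrier vessels, with 111 and 148. Its second probe set had a log2 ratio of 0.02. The part of fibroblasts and vessels in the ratios of the barrier genes was not tested.

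Glial and neuronal markers stood closer to or below the median gene. The 9 myelin markers of Schwann cells had a median log2 ratio of 0.12 and summed signals of 24010 on the tumor side and 23346 on the control side. Satellite glia, with 4 of 7 markers above the rule, had a median of 0.12. The 14 sensory neuron markers, all above the rule, had a median of -0.02, with 66175 summed on the tumor side and 66671 on the control side. Among them, the transcription factor Pou4f1 had 247 and 311. No measured marker of sensory neurons, which define the labelled tissue, was below the rule. In whole ganglia, fewer cells of a type and less RNA per cell cannot be told apart.

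Ptgds and Cldn11 are also genes of oligodendrocytes, which a piece of spinal root could bring along. Of 10 measured markers of oligodendrocytes and spinal cord glia, 8 were below the rule on these arrays. The other 2, Cnp with 1867 on the tumor side and 1663 on the control side and Aspa with 697 and 578, are expressed in Schwann cells as well, and had log2 ratios of 0.17 and 0.27. A second probe set of Cnp above the rule had 446 on the tumor side and 343 on the control side, a log2 ratio of 0.38. The 10 summed to 2734 on the tumor side and 2381 on the control side, and their lowest signals were 1.93 and 2.11. Markers of tissue outside the ganglia are given over all measured ones, since 8 of the 10 skeletal muscle markers above the rule passed it only by their control-side signal. The median log2 ratio was -1.62 for the 11 skeletal muscle markers, 0.82 for the 10 of bone and cartilage, -0.999 for the 5 of granulocytes and -0.49 for the 5 of erythroid cells. The part of such tissue in the barrier genes was not tested.

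**Figure D3:**
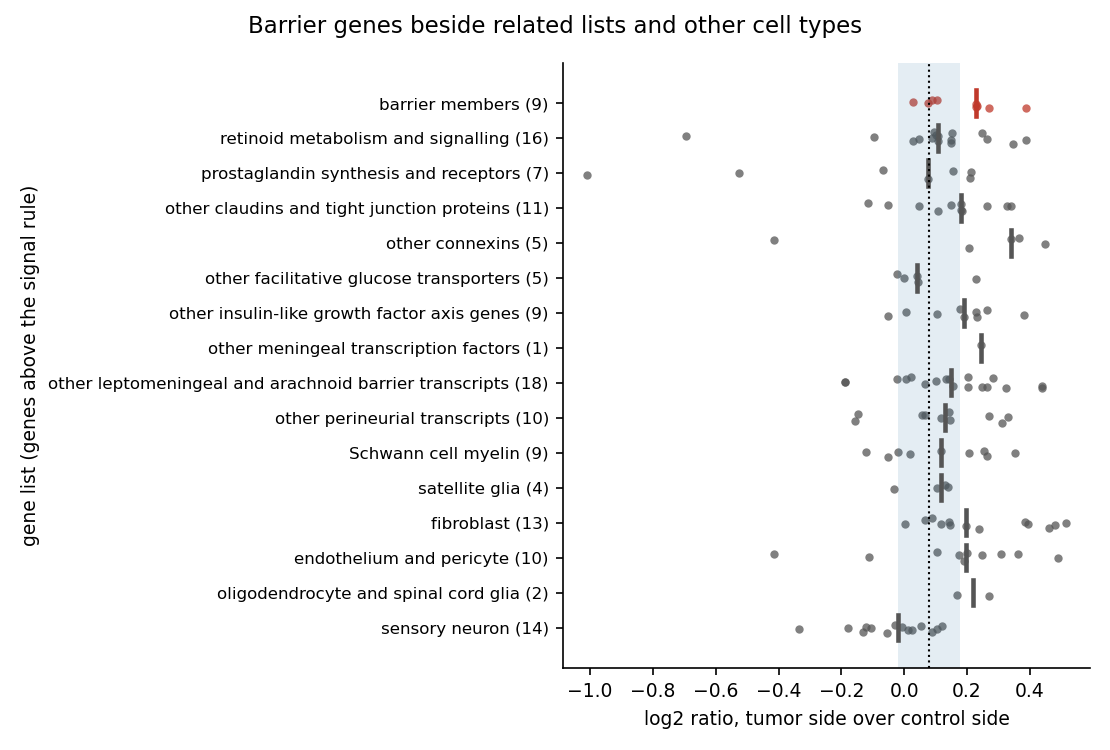
Log2 ratio (tumor side over control side) of each gene above the signal rule in the barrier genes (red) and in related lists and markers of other cell types (grey), whose gene numbers stand in brackets. A vertical bar marks each list's median, the dotted line that of all genes above the rule (0.08) and the shaded band their range from percentile 25 to percentile 75 (-0.02 to 0.18). The barrier genes, chosen in part on their signals, have a median of 0.23, beside 0.20 for fibroblast markers and -0.02 for sensory neuron markers.

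The scaling of the arrays decided on which side of 0 some genes of the lower set fell. After quantile normalization, median-centring or loess, Slc2a1 and Aldh1a2 had the lower value on the tumor side under all 3, with -0.02 and -0.06 after quantile normalization. Aldh1a1 lay close to 0, with -0.000711 after quantile normalization, 0.01 after centring and 0.00029 after loess, and Gjb2 remained above 0 with 0.01 to 0.02. The upper set kept its sign under all 6 alternatives, with Crabp2 between 0.30 and 0.39 and Cldn1 between 0.18 and 0.40. Little could alter it. None of the genes has a probe set marked as cross-hybridising, and Crabp2, Ptgds and Igfbp2 have a single probe set each, so averaging changes nothing for them. The scalings took the median gene from 0.08 to near 0, a smaller shift than any ratio of the upper set. Crabp2 was no longer 25% higher after quantile normalization, centring or loess.

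**Figure D4:**
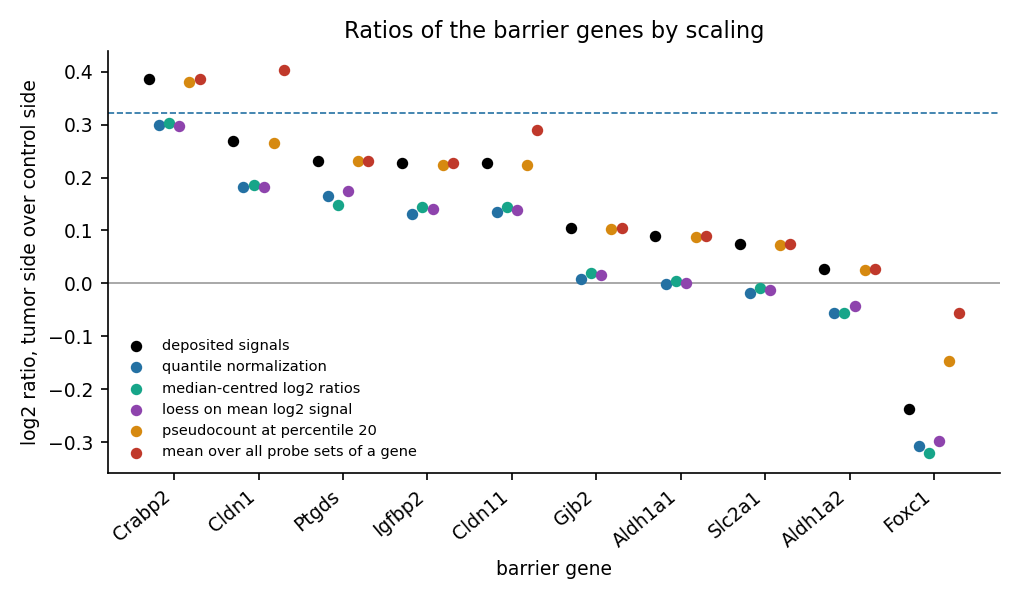
Log2 ratio (tumor side over control side) of the 10 barrier genes under 6 settings, ordered by their ratio from the deposited signals. The dashed line marks 25% higher and the grey line a ratio of 1. Crabp2, Cldn1, Ptgds, Igfbp2 and Cldn11 stay above 0 throughout, while Slc2a1 and Aldh1a2 cross it and Aldh1a1 touches it, with -0.000711 as its lowest value.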

How the data were processed

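RNA of tumor-side and control-side DRGs was measured on 1 array each. The authors computed MAS 5.0 signal intensity values (MAS5 in the submitters' processing notes) at default settings and deposited these linear values, covering 31042 probe sets and 57 control probe sets. The sources used here do not state the scaling. No detection calls were used here, and the number of arrays limits the precision.

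Log2 ratios of tumor side over control side were computed from the deposited values without a pseudocount. A single gene symbol belongs to 20826 probe sets, several symbols to 436 and none here to 9780. Of the 20826, 20758 matched RefSeq (GRCr8) by gene identifier. No test was made, as each side has 1 array, and counts use a threshold of 25% higher or 20% lower. The members and lists were chosen with earlier results of these data known. Named genes are the 10 members and up to 3 genes per list above the signal rule whose log2 ratios were farthest from 0. Aldh1a3, Gja1 and Gjc1 were named after their values were seen. Myl11 entered the muscle list under an older symbol.

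The alternatives were quantile normalization, median-centring, loess (span 0.3), a pseudocount of 11.1 (percentile 20 of all signals), averaging a gene's probe sets, cross-hybridising probe sets left out, other signal filters, and thresholds of 15%, 50% and 100% higher. The computation of ratios and scalings was checked on simulated data, which tests the arithmetic and not how reliable the ratios are. The software was matplotlib 3.10.9, statsmodels 0.14.6, numpy 2.4.6, pandas 2.3.3 and Python 3.11.15.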

Additional observations from a re-analysis of the deposited data

How the results depend on the processing

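The median log2 ratio of the barrier genes, 0.23, was between 0.13 and 0.23 under its 9 alternatives, with 0.13 after quantile normalization, 0.14 after centring and 0.14 after loess. The median of all genes, 0.08 before, was close to 0 after each of these 3. The count of barrier genes 25% or more above the control side was 1 in the deposited signals. It was 0 after quantile normalization, 0 with median-centred log2 ratios, 0 after loess and 2 with the mean over all probe sets. With thresholds of 15%, 50% and 100% higher, all in the deposited signals, it was 5, 0 and 0. The count 20% or more below the control side was 0 under each of its alternatives. Of 43 values of single genes that an alternative could alter, 39 moved by less than the SD between probe sets of a gene and 4 by more. Of the 4, 3 were of Ptgds under the scalings and 1 of Cldn1 under the mean over its probe sets. The scalings shifted all genes by like amounts, so these counts follow largely from the SD and do not rank the genes by stability. After quantile normalization Ptgds went from 0.23 to 0.16, beside an SD of 0.05. Igfbp2 went from 0.23 to 0.13, beside an SD of 0.12. Crabp2 kept its sign throughout these alternatives, but its ratio of 0.39 exceeds any shift that the scalings made. No paired analysis was possible because there is 1 array for either side. Low signal limits Foxc1 and Aldh1a2, where log2 ratios of neighbouring probe sets scatter most among the 10 genes.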
